A study of Danio rerio with 12 samples.

Results

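The comparison of *myd88*-/- with *myd88*+/+ injured heart tissue at 24 hours post cryoinjury (hpci) rests on 4 of the 12 bulk RNA-seq libraries of the series, 2 of each genotype, taken by their labels. Adult zebrafish were mutant for the *myd88* hu3568 loss-of-function allele in all their cells or were wild-type siblings, and a cooled probe was held against the tip of the ventricle. Each library was made from the injured tissues of 3 pooled hearts, and replicates differ as pools of fish, not as single fish. The remaining 8 libraries were made from injured tissues at 1 hpci and from untouched (UT) ventricles of both genotypes.

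MyD88 is the adaptor protein that Toll-like receptors and receptors of the interleukin-1 family use to pass on a signal from microbes, cell debris or cytokines. Through kinases of the IRAK family and the ubiquitin ligase TRAF6 it activates the transcription factor NF-kB, whose targets include chemokines, tumour necrosis factor and the inhibitors of NF-kB itself. In a cryoinjured heart these signals draw in neutrophils and macrophages, while endocardial and epicardial cells lay down a temporary matrix.

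Values are normalized counts, which are read counts divided by a size factor for each library and rounded to whole numbers. The spacing of the values gave estimates of 4121336 and 3908966 reads for the *myd88*-/- libraries of 24 hpci, and of 1476710 and 4052819 for the *myd88*+/+ ones. In *myd88*+/+ replicate 1, the shallow library, 1 read was worth 2.54 normalized counts and 3 reads were worth 7.61, and 17683 genes had a value above 0 against 20166 to 20474 in the other 3 libraries at 24 hpci. The other 8 libraries held 3035695 to 4018990 reads. These depths limit the counting precision, and differences between pools come on top of it.

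The shallow library differed from its replicate in a way that followed the level of a gene. The 16643 tested genes were split by mean level into 10 bins of equal size. In the lowest bin the median of *myd88*+/+ replicate 1 minus replicate 2 was −0.81 on the log2(value + 1) scale, and in the highest bin it was 0.53. The corresponding medians between the *myd88*-/- replicates were 0.42 and −0.09. The median log2 fold change between the genotypes accordingly ran from 0.50 in the lowest bin to −0.30 in the highest, but stayed between −0.04 and 0.03 in all bins when *myd88*-/- was set against *myd88*+/+ replicate 2 alone. Fold changes below are therefore also given against that deeper library alone. The part of read depth in this pattern was not tested.

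**Figure D1:**
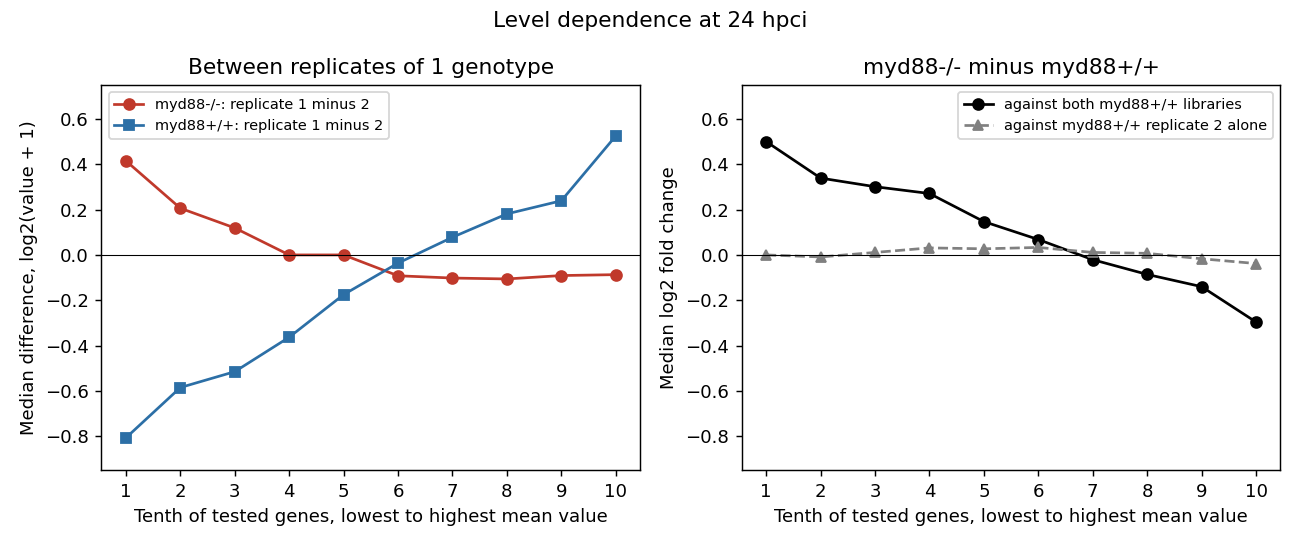
Median differences at 24 hpci for 10 bins of the 16643 tested genes, ordered by mean level (x axis, bin 1 lowest), on the log2(value + 1) scale (y axis). Left, replicate 1 minus replicate 2 within *myd88*-/- (circles) and *myd88*+/+ (squares), where the *myd88*+/+ line climbs from −0.81 to 0.53. Right, *myd88*-/- minus *myd88*+/+ with both *myd88*+/+ libraries (circles, 0.50 to −0.30) and with replicate 2 alone (triangles, flat near 0).

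The mutated gene was measured first. *myd88* lies at 20188914 to 20192996 of chromosome 24, minus strand, in danRer11. Its values were 43 and 66 normalized counts in *myd88*-/- tissues, against 79 and 113 in *myd88*+/+ tissues. The ranges of the genotypes did not overlap, and the allele left some *myd88* mRNA to count. The log2 fold change was −0.81 (standard error 0.28, limma adjusted p = 0.70), and −1.07 against *myd88*+/+ replicate 2 alone. In UT ventricles *myd88* had 32 and 37 in *myd88*-/- against 63 and 56 in *myd88*+/+, and at 1 hpci 199 and 210 against 200 and 171, where the genotypes overlapped. With 2 libraries against 2, an exact permutation test of 1 gene cannot give a two-sided p below 0.33, so the tests rest on limma's model over all genes and conditions.

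Calls required a limma adjusted p under 0.05 together with a difference of more than 1.5-fold. Of 16643 tested genes 5 met this, 2 lower (0.012%) and 3 higher (0.018%) in *myd88*-/- tissues. An unadjusted limma p below 0.05 was found for 327 lower genes (1.96%) and 526 higher genes (3.16%), 5.13% together. Both *myd88*-/- libraries lay below both *myd88*+/+ libraries in 2023 genes (12.2%) and above them in 2679 (16.1%). Against *myd88*+/+ replicate 2 alone limma called 0 genes, and 426 (2.56%) had an unadjusted p below 0.05 (1.02% lower and 1.54% higher), among them 109 of the 327 lower and 157 of the 526 higher genes. Without *myd88*+/+ replicate 2, with the shallow library as the only *myd88*+/+ sample, 2165 genes were called. Without *myd88*-/- replicate 1 limma called 1 gene, which was not among the 5, and without *myd88*-/- replicate 2 it called 0.

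The gene *si:ch211-14a17.10* (ENSDARG00000076534, chromosome 2, 38231695 to 38261272) was measured at 28 and 21 normalized counts in *myd88*-/- tissues and 853 and 490 in *myd88*+/+ tissues. All 8 libraries of the other states had 19 to 86 normalized counts of it. The log2 fold change was −4.68 (standard error 0.46, limma adjusted p = 0.013), and −4.28 against *myd88*+/+ replicate 2 alone (limma adjusted p = 0.10). A second gene, *si:ch211-194m7.8* (ENSDARG00000104947, chromosome 25, 13313941 to 13320986), had 3 and 5 against 168 and 93. Its log2 fold change was −4.69 (standard error 0.52, limma adjusted p = 0.015), and −4.26 with the deeper library alone (limma adjusted p = 0.14). In UT ventricles *si:ch211-194m7.8* had 17 and 24 normalized counts in *myd88*-/- against 4 and 10 in *myd88*+/+. At 1 hpci it had 20 and 15 against 11 and 11. The deposited table gives both genes as protein-coding.

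The 3 genes called higher were *oit3*, *aglb* and *eya4*. *oit3*, which encodes a secreted protein with a zona pellucida domain, had 89 and 43 normalized counts in *myd88*-/- tissues and 0 and 0 in *myd88*+/+ tissues (limma adjusted p = 0.015, and 0.13 with the deeper library alone). Set against the mean worth of 3 reads in the *myd88*+/+ libraries, 4.93, it was at least 13.4-fold higher. In UT ventricles it had 50 and 21 in *myd88*-/- and 16 and 35 in *myd88*+/+, so the genotypes overlapped there. At 1 hpci it had 0 and 0 against 6 and 2, where 3 reads were worth 3.03 and 2.55 in the *myd88*+/+ libraries.

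*aglb*, a homologue of the glycogen debranching enzyme, had 135 and 63 normalized counts in *myd88*-/- tissues, against 5 and 8 in *myd88*+/+ tissues. On the log2 scale *aglb* was 3.67 higher (standard error 0.42, limma adjusted p = 0.015), and 3.37 against the deeper library alone (limma adjusted p = 0.14). It lies on chromosome 24 (29783638 to 29868151), as *myd88* does. The same order held in the other states, with 609 and 437 against 317 and 195 in UT ventricles and 786 and 784 against 124 and 234 at 1 hpci. *eya4*, which encodes a transcriptional coactivator of the Eyes absent family, had 214 and 259 normalized counts in *myd88*-/- tissues and 71 and 86 in *myd88*+/+ tissues. Its log2 fold change was 1.58 (standard error 0.19, limma adjusted p = 0.015), and 1.44 against the deeper library alone (limma adjusted p = 0.13). *eya4* also lay higher without overlap at 1 hpci, with 378 and 418 against 302 and 258.

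Named genes were taken as the 15 lower and the 15 higher with the smallest unadjusted p among genes with a descriptive symbol whose libraries did not overlap between the genotypes. Of the lower 15 none was called, with limma adjusted p from 0.18 to 0.51. They include *tnfa*, the inflammatory cytokine tumour necrosis factor, with 8 and 8 normalized counts in *myd88*-/- tissues, against 119 and 78 in *myd88*+/+ tissues. The log2 fold change of *tnfa* was −3.44 (standard error 0.70, limma adjusted p = 0.35), and −3.13 with the deeper library alone. Every *myd88*+/+ value of these 15 genes at 24 hpci was above both *myd88*-/- values, as the rule required.

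The other lower genes had varied roles. *clca1*, whose mammalian homologue is secreted by mucosal cells, had 4 and 3 normalized counts in *myd88*-/- tissues and 58 and 60 in *myd88*+/+ tissues. *agr2*, a disulfide isomerase of secretory cells in mammals, had 7 and 10 against 104 and 63. The Kazal-type protease inhibitor genes *spink2.2* and *spink2.3* had 7 and 9 against 86 and 48, and 6 and 2 against 107 and 31. Of the rest, *ccl34b.9* encodes a CC chemokine, *adipoqa* adiponectin, *hrh3* a histamine receptor, *prkg1b* a kinase activated by cyclic GMP, *trim55a* a ubiquitin ligase of the sarcomere, *snai3* a zinc finger factor of the Snail family and *hsp70l* an inducible chaperone. *hrh3* had 93 and 68 normalized counts in *myd88*-/- tissues, against 211 and 207 in *myd88*+/+ tissues (log2 fold change −1.38, standard error 0.24, limma adjusted p = 0.18, and −1.37 with the deeper library alone). In UT ventricles *hrh3* was called lower, as were 1.15% of all tested genes, with 85 and 82 in *myd88*-/- against 479 and 438 in *myd88*+/+ (log2 fold change −2.44, limma adjusted p = 0.0013).

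Among the 15 higher genes limma adjusted p ran from 0.015 to 0.45, and only *oit3*, *aglb* and *eya4* passed. *phex*, a membrane endopeptidase known for its part in phosphate balance, had 487 and 545 normalized counts in *myd88*-/- tissues, against 81 and 32 in *myd88*+/+ tissues. On the log2 scale the difference was 3.31 (standard error 0.57, limma adjusted p = 0.18), and 3.97 with the deeper library alone. *clstn2*, which encodes the synaptic cadherin-like protein calsyntenin, had 114 and 115 against 18 and 14. *klf9*, a Krüppel-like factor induced by glucocorticoids in mammals and fish, had 111 and 71 against 28 and 29, and *ghrb*, a growth hormone receptor gene, had 284 and 205 against 76 and 61. The smallest adjusted p with the deeper library alone was that of *asb2a.1* (33 and 18 against 5 and 2). Its difference on the log2 scale was 2.58 (limma adjusted p = 0.092), and 3.08 with the deeper library alone (limma adjusted p = 0.071).

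**Figure D2:**
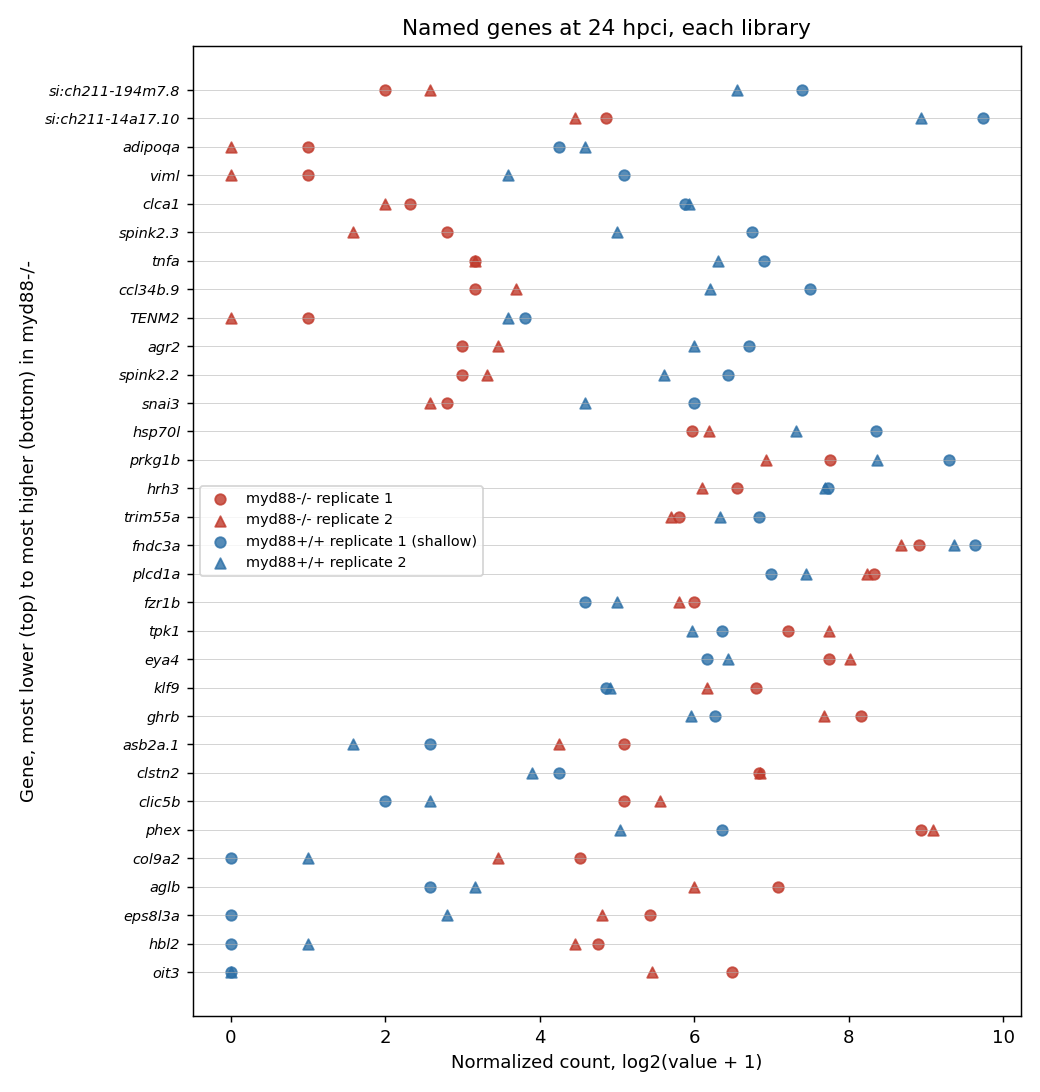
Normalized counts of the called and named genes at 24 hpci in each library, as log2(value + 1) (x axis), ordered from most lower to most higher in *myd88*-/- (y axis). Red symbols are *myd88*-/- and blue symbols *myd88*+/+ libraries, with circles for replicate 1 and triangles for replicate 2. In no gene shown do the colours overlap, as the rule for naming required.

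A rule applied alike to the 6 conditions asked which genes stood above all other libraries in both libraries of 1 condition. Both values had to be above 10 and, with 1 added, more than 3 times the highest of the other 10 libraries. The rule did not require low values elsewhere. It was set after the values had been seen and is a description without a test. It found 5 genes for *myd88*-/- and 36 for *myd88*+/+ tissues at 24 hpci, 4 and 14 at 1 hpci, and 2 and 15 in UT ventricles. The 5 genes of *myd88*-/- tissues at 24 hpci were *clstn2*, *phex*, *plin2*, *ecm1a* and *sult3st3*. *plin2*, which coats lipid droplets, had 567 and 615 normalized counts in *myd88*-/- tissues and 102 and 177 in *myd88*+/+ tissues.

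The 36 genes of *myd88*+/+ tissues at 24 hpci had medians of 5.5 and 6 normalized counts in the *myd88*-/- libraries, against 86 and 55 in the *myd88*+/+ libraries. They include *tnfa*, *itln1*, *agr2*, *clca1*, *chia.6*, *tgm5l*, *slc6a14*, *pdia2*, *c3a.4* and *ccl34b.9*. *itln1*, an intelectin that binds microbial sugars, had 7 and 20 normalized counts in *myd88*-/- tissues, against 272 and 146 in *myd88*+/+ tissues. *c3a.4*, a gene of complement component C3, had 170 and 130 against 594 and 563. The smallest *myd88*+/+ values in the group rested on about 5 reads in replicate 1 and 21 in replicate 2.

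Set against UT ventricles of the same genotype, 4 of the 33 tested genes of this group were called higher in *myd88*-/- tissues at 24 hpci, beside 15.6% of all tested genes. The median log2 difference was 0.13 in *myd88*-/- and 4.66 in *myd88*+/+. The rule capped the first value and fixed the direction of the second, so both are descriptions. Injured tissues and whole ventricles are different parts of the heart, so injury and sampled part cannot be told apart in either value.

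Of the 36 genes 21 lay within 200 kb of another of the group. The share of such neighbours in other sets of genes was not measured. A stretch of chromosome 14 from 15170667 to 15625472 (danRer11) held 10 of them, *spink2.2* to *spink2.5* and *si:dkey-203a12.2*, *si:dkey-203a12.4*, *si:dkey-203a12.5*, *si:dkey-203a12.7*, *si:dkey-203a12.9* and *si:dkey-77g12.4*. *spink2.5* had 4 and 6 normalized counts in *myd88*-/- tissues, against 147 and 61 in *myd88*+/+ tissues. *si:dkey-203a12.4* had 1 and 5 against 132 and 43. The neighbouring *spink2.1* did not follow the rule, with 42 and 40 against 137 and 52, and with 101 to 140 in the 4 libraries of 1 hpci. Some of these genes overlap or resemble each other, and reads that matched several places or several genes had been discarded, so their separate values are uncertain.

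Since several of these genes are known from mucosal epithelium or pancreas, markers of such tissues were looked up after the values had been seen. Skin and mucosal genes summed to 1148 and 1215 normalized counts in *myd88*-/- tissues and 1825 and 1125 in *myd88*+/+ tissues, and nearly all of it was *krt4*, *icn*, *krt91*, *cdh1* and *tp63*. Of the other members, *cldne*, *krtt1c19e* and *muc5.2* were at 0 in all 4 libraries, *cyt1*, *icn2* and *muc5.1* at 0 or 1, *epcam* at 0 to 3, and *krt5* at 1 and 0 against 0 and 28. No defining markers had been set for this list, and a part of such epithelium in the tissues was not tested. Gut epithelium genes summed to 55 and 41 against 35 and 37, and exocrine pancreas genes to 440 and 349 against 310 and 205.

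**Figure D3:**
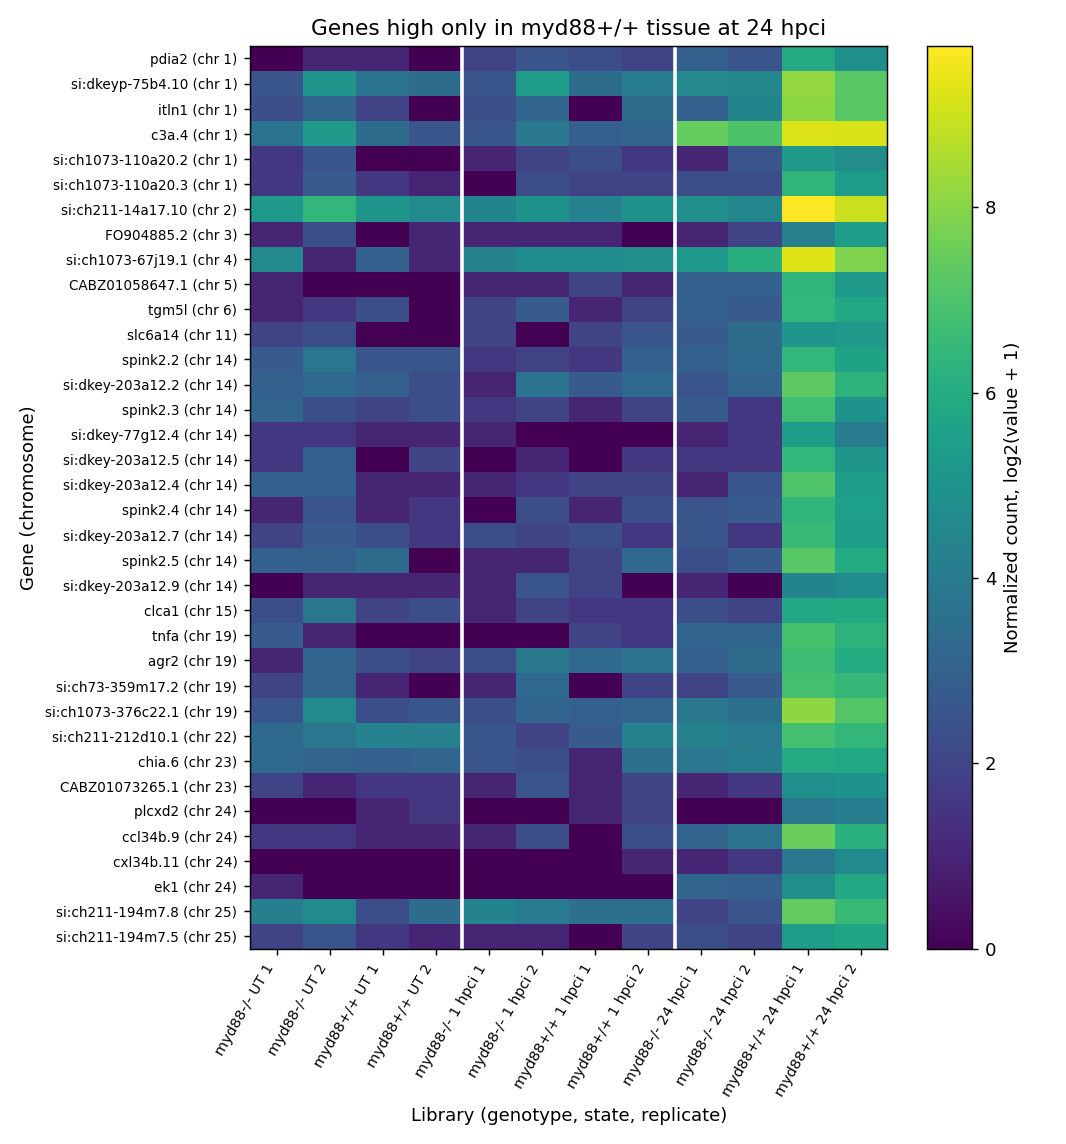
The 36 genes that the rule found for *myd88*+/+ tissues at 24 hpci (rows, with their chromosome) in all 12 libraries (columns), coloured by log2(value + 1). The bright columns are the *myd88*+/+ libraries at 24 hpci, by the rule that chose the genes, and the values in the *myd88*-/- columns at 24 hpci lie between 0 and 170.

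Lists of genes with known roles were described by counts and medians, without a test of the list. The median log2 fold change over all tested genes was 0.035, and −0.002 with the deeper library alone. Of 32 lists 10 had a median below −0.3, but with the deeper library alone 1 did, the chemokines, and 20 lay within 0.1 of 0. No gene of any list was called. Bulk libraries cannot tell fewer cells of a type from less RNA per cell.

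Receptors and adaptors came first in the pathway. Of 13 tested genes of Toll-like and interleukin-1 family receptors, 1 lay below and 1 above in both *myd88*-/- libraries (7.69% each, beside 12.2% and 16.1% of all tested genes), and the median of 0.08 became −0.22 with the deeper library alone. *tlr3*, a receptor for double-stranded RNA that signals through another adaptor, had 78 and 60 normalized counts in *myd88*-/- tissues, against 23 and 48 in *myd88*+/+ tissues. *tlr5b*, a flagellin receptor, had 225 and 199 against 264 and 299. The 19 adaptors, kinases and ubiquitin ligases downstream of MyD88 had a median of −0.09, and −0.06 with the deeper library alone.

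Of 25 genes of NF-kB subunits, kinases and inhibitors, 8 had both *myd88*-/- libraries below both *myd88*+/+ libraries (32%, against 12.2% of all tested genes) and 0 had them above. Their median was −0.25, and −0.24 with the deeper library alone, where 22 of the 25 were lower. None had an unadjusted limma p below 0.05. *nfkbiaa*, the inhibitor IkB-alpha and itself an NF-kB target, had 327 and 430 normalized counts in *myd88*-/- tissues, against 840 and 473 in *myd88*+/+ tissues. *irf1b*, an interferon regulatory factor, had 193 and 240 against 591 and 308. In both genes the shallow *myd88*+/+ library held the higher value by a wide margin.

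Chemokines, the attractants of leukocytes, had 10 of 25 tested genes lower without overlap (40%, beside 12.2% of all tested genes) and 2 higher (8%, beside 16.1%). Their median of −0.50 was −0.39 with the deeper library alone. *ccl34b.9* had 8 and 12 normalized counts in *myd88*-/- tissues, against 180 and 73 in *myd88*+/+ tissues (log2 fold change −3.42, standard error 0.83, limma adjusted p = 0.51, and −2.77 with the deeper library alone). *cxcl18b*, a neutrophil attractant of fish, had 116 and 157 against 383 and 243 (log2 fold change −1.17, and −0.84 with the deeper library alone). *cxcl8b.1*, a gene of the interleukin-8 type, had 60 and 59 against 216 and 106.

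Of 26 genes of the tumour necrosis factor family and its targets, 11 lay lower without overlap (42.3%, beside 12.2% of all tested genes) and 2 higher (7.69%, beside 16.1%), with a median of −0.17, and −0.09 with the deeper library alone. *tnfrsf11b*, the decoy receptor osteoprotegerin, had 429 and 502 normalized counts in *myd88*-/- tissues, against 1241 and 757 in *myd88*+/+ tissues. *birc2*, an inhibitor of apoptosis that also regulates NF-kB, had 668 and 712 against 1462 and 846. Among 18 interleukins and haematopoietic cytokines 6 lay lower without overlap (beside 12.2% of all tested genes) and 2 higher (beside 16.1%), and the median of −0.11 was −0.26 with the deeper library alone. *il13*, a type 2 cytokine, had 17 and 17 against 71 and 48 (log2 fold change −1.72, limma adjusted p = 0.70, and −1.45 with the deeper library alone), and *il15*, a growth factor of lymphocytes, had 33 and 33 against 20 and 20. Outside the rule for naming, *il1b* had 51 and 88 against 119 and 123 and was picked after its values were seen. *cish*, a cytokine-induced inhibitor of STAT5 signalling, had 193 and 170 against 426 and 302 (log2 fold change −0.98, limma adjusted p = 0.51, and −0.73 with the deeper library alone).

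The neutrophil list had 15 of 29 tested genes with both *myd88*-/- libraries below both *myd88*+/+ libraries (51.7%, beside 12.2% of all tested genes) and 0 above (beside 16.1%). Its median of −0.54 was −0.28 with the deeper library alone, where 25 of the 29 were lower. The summed level was 6812 and 8185 normalized counts in *myd88*-/- tissues, against 14623 and 9041 in *myd88*+/+ tissues. The defining marker *mpx*, myeloperoxidase, had 155 and 236 against 216 and 280, so the genotypes overlapped, and *npsn* had 68 and 110 against 71 and 92. *lyz* had at most 3 in all 4 libraries. *srgn*, a proteoglycan of granules, had 434 and 470 against 1086 and 498, where only the shallow library stood apart.

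Macrophage genes had 1 of 37 lower (2.7%, beside 12.2% of all tested genes) and 5 higher (13.5%, beside 16.1%) without overlap, and a median of −0.35 that was 0.02 with the deeper library alone. Their sum was 14669 and 16378 normalized counts in *myd88*-/- tissues and 26119 and 15504 in *myd88*+/+ tissues, so the genotypes overlapped. *mpeg1.1* had 525 and 675 against 873 and 530, *csf1ra* 506 and 404 against 302 and 446, and the scavenger receptor *marco* 670 and 839 against 1690 and 768. The lymphocyte markers *lck* and *zap70* had 1 to 8 in each library. *cd79a*, of the B cell receptor, had 15 and 17 against 28 and 25.

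The labelled tissue carried the markers of the heart. The cardiomyocyte markers *myl7* and *tnnt2a* had 568 and 550, and 636 and 635, in *myd88*-/- tissues, against 1561 and 548, and 1718 and 620, in *myd88*+/+ tissues. The endothelial markers *cdh5*, *kdrl* and *fli1a* had 591 to 1053 in the 4 libraries, and the epicardial *tcf21* 82 to 117. The liver genes *fabp10a* and *apoa2* were at 0 or 1, and the skeletal muscle genes *myhz2* and *mylpfa* at 0 to 6. The defining markers *tfa* and *myhz1.1* are not given here. Other members of these lists did have counts. Liver and plasma protein genes summed to 383 and 189 in *myd88*-/- tissues, against 406 and 229 in *myd88*+/+ tissues. Skeletal muscle genes summed to 1325 and 1086 against 2437 and 1263. Red blood cell genes summed to 5943 and 6324 against 9800 and 6549, and *hbaa1* had 247 and 282 against 713 and 286.

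Cardiomyocyte, stress and metabolic lists leaned on the shallow library. The median of 38 cardiomyocyte genes was −0.55, and −0.04 with the deeper library alone. Of them 9 lay lower without overlap (23.7%, beside 12.2% of all tested genes) and 1 higher (2.63%, beside 16.1%). *xirp1* and *ldb3a*, of the sarcomere and its junctions, kept most of their difference, with 1553 and 1255 against 2477 and 1991 and 1162 and 868 against 1792 and 1347. *nppb*, a natriuretic peptide gene, did not, with 373 and 391 against 1150 and 425. The median of 35 heat shock and unfolded protein genes was −0.55, and −0.08 with the deeper library alone, and that of 35 hypoxia and glycolysis genes −0.44 and −0.07. Without overlap 17 of the heat shock genes lay lower (48.6%) and 14 of the hypoxia genes (40%), beside 12.2% of all tested genes. Higher without overlap were 1 (2.86%) and 2 (5.71%), beside 16.1%. An unadjusted limma p below 0.05 was found for 8 lower genes in each list, beside 1.96% of all tested genes, and for 0 and 3 higher ones, beside 3.16%.

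The inducible *hsp70* chaperone genes stood apart within their list. *hsp70l* had 62 and 72 normalized counts in *myd88*-/- tissues, against 327 and 158 in *myd88*+/+ tissues. Its log2 fold change was −1.75 (standard error 0.35, limma adjusted p = 0.35), and −1.23 with the deeper library alone. *hsp70.2* had 61 and 73 against 264 and 124, and *hsp70.3* 62 and 74 against 244 and 128. The 3 genes are close copies whose shared reads had been discarded, so their values are uncertain one by one. In UT ventricles *hsp70l* had 14 and 14 in *myd88*-/- and 201 and 178 in *myd88*+/+, and was called there (log2 fold change −3.66, limma adjusted p = 0.0013). *vegfaa*, an angiogenic growth factor gene induced by hypoxia, had 272 and 261 at 24 hpci in *myd88*-/- tissues and 607 and 386 in *myd88*+/+ tissues. *hif1al* had 455 and 349 against 193 and 219 and was thus higher in *myd88*-/- without overlap (log2 fold change 0.95, limma adjusted p = 0.51, and 0.86 with the deeper library alone).

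Collagens went the other way. Of 25 tested collagen genes 8 had both *myd88*-/- libraries above both *myd88*+/+ libraries (32%, against 16.1% of all tested genes) and 0 below. An unadjusted limma p below 0.05 was found for 6 of the 25 in the higher direction, beside 3.16% of all tested genes, and for 2 with the deeper library alone, beside 1.54%. The median was 0.67, and 0.26 with the deeper library alone, where 18 of 25 were higher. *col11a1a*, a fibrillar collagen gene, had 168 and 150 normalized counts in *myd88*-/- tissues, against 30 and 56 in *myd88*+/+ tissues (log2 fold change 1.93, standard error 0.64, limma adjusted p = 0.70, and 1.49 with the deeper library alone). *col16a1* had 268 and 186 against 109 and 134, and *col6a4a* had 210 and 62 against 25 and 43. The summed level of the collagens, which the most abundant ones set, was 15618 and 12483 against 13754 and 12028, so it overlapped. *col11a1a* lies on chromosome 24.

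Genes of the injury matrix and the epicardium, the cell layer that covers the heart, gave mixed values. Of 42 genes of injury endocardium and fibrosis, 7 lay lower without overlap (16.7%, beside 12.2% of all tested genes) and 9 higher (21.4%, beside 16.1%). Their median was 0.08, and −0.025 with the deeper library alone. Of 22 matrix metalloproteinases and inhibitors, 8 lay lower (36.4%) and 3 higher (13.6%), with a median of −0.09, and −0.20 with the deeper library alone. *postnb*, a periostin gene of the provisional matrix, had 297 and 233 normalized counts in *myd88*-/- tissues, against 79 and 90 in *myd88*+/+ tissues. Its log2 fold change was 1.63 (standard error 0.37, limma adjusted p = 0.45), and 1.54 with the deeper library alone. *mmp2*, a gelatinase gene, had 367 and 361 against 259 and 214, while *adamts1*, a protease of proteoglycans, had 183 and 212 against 269 and 358. *tgfb3*, a transforming growth factor gene, had 363 and 406 against 934 and 527. Over the 20 epicardial genes 6 lay higher without overlap (30%, beside 16.1% of all tested genes) and 1 lower (5%, beside 12.2%). *tbx18*, an epicardial transcription factor gene, had 120 and 95 against 36 and 87, whereas *wt1b*, another, had 183 and 216 against 525 and 288.

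Of 40 cell cycle genes 18 lay higher in *myd88*-/- without overlap (45%, beside 16.1% of all tested genes) and 1 lower (2.5%, beside 12.2%), but 0 had an unadjusted limma p below 0.05. The median was 0.25, and 0.14 with the deeper library alone, where 30 of 40 were higher. *kif23*, a motor protein gene of cell division, had 137 and 141 normalized counts in *myd88*-/- tissues, against 76 and 119 in *myd88*+/+ tissues. Of 38 genes of the PI3K-AKT pathway, which passes on insulin and growth factor signals, 9 lay higher without overlap (23.7%, beside 16.1%) and 3 lower (7.89%, beside 12.2%), with a median of 0.18 that was 0.00 with the deeper library alone. *irs1*, an insulin receptor substrate gene, had 267 and 89 against 30 and 65. In prostaglandin synthesis *ptgs1*, cyclooxygenase 1, had 140 and 102 against 58 and 74, and the lipoxygenase gene *alox5b.2* had 37 and 49 against 218 and 77.

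Several other immune and stress lists had medians within 0.1 of 0, or at −0.10, with the deeper library alone. The medians were −0.35 and −0.10 for 21 complement and acute phase genes, −0.35 and −0.02 for 32 lysosome and phagocytosis genes, and −0.38 and −0.01 for 29 immediate-early genes, first with both *myd88*+/+ libraries and then with the deeper one. Without overlap, 7 of the 21 complement genes lay lower and 4 higher. The counts were 5 and 1 of the 32 lysosome genes (15.6% and 3.12%), and 8 and 4 of the 29 immediate-early genes (27.6% and 13.8%). For 37 interferon response genes the medians were −0.21 and 0.01, with 5 genes lower (13.5%, beside 12.2%) and 4 higher (10.8%, beside 16.1%) without overlap. The 24 inflammasome and cell death genes had −0.17 and −0.06, with 5 lower (20.8%) and 2 higher (8.33%) without overlap. The 17 chemokine receptors had −0.10 and −0.02, with 1 lower (5.88%) and 3 higher (17.6%). The 41 cytokine receptor and JAK-STAT genes had −0.09 and −0.10, with 8 lower (19.5%) and 3 higher (7.32%) without overlap. The 13 T, B and NK cell genes kept more of their difference, with −0.25 and −0.15 and 10 of 13 lower than the deeper library. Of these 13 genes 5 lay lower without overlap and 0 higher. None of these lists had a gene called between the genotypes at 24 hpci.

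**Figure D4:**
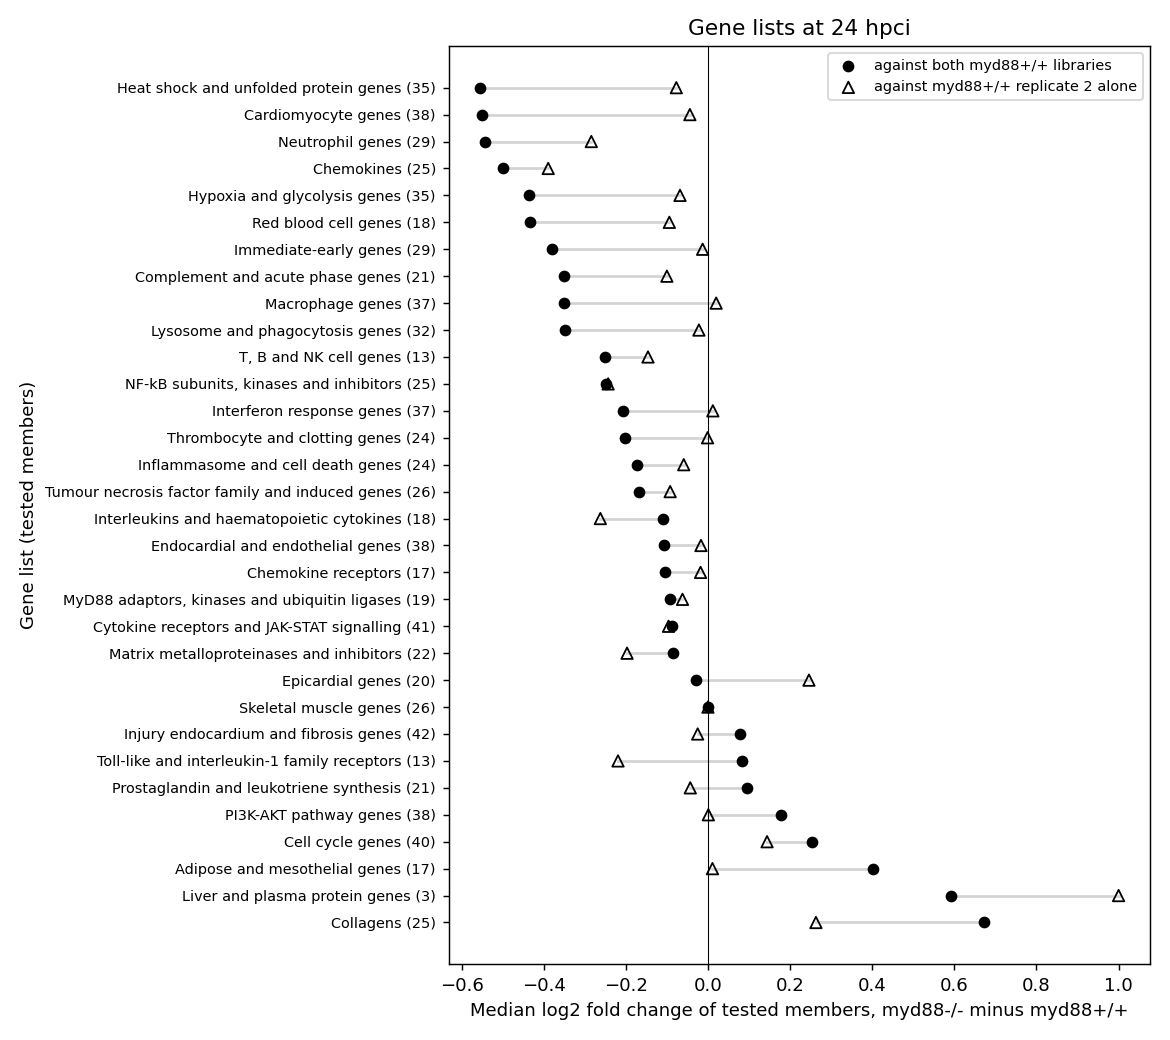
Median log2 fold change of *myd88*-/- over *myd88*+/+ at 24 hpci for the tested members (number in brackets) of 32 gene lists, on the log2(value + 1) scale. Filled circles use both *myd88*+/+ libraries and open triangles replicate 2 alone. Cardiomyocyte (−0.55 and −0.04) and heat shock genes (−0.55 and −0.08) move to 0 with the deeper library, while chemokines (−0.50 and −0.39) and NF-kB genes (−0.25 and −0.24) move less.

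Chromosome 24, which carries *myd88*, had the highest share of genes with an unadjusted limma p below 0.05, 53 of 468, and chromosome 14 came next with 6.44%, beside 5.13% of all tested genes. Shares with the deeper library alone rest on a lone *myd88*+/+ sample and are not given. In UT ventricles and at 1 hpci, where both genotypes have libraries of their own, chromosome 24 had 23.3% and 15%, beside 16.3% and 8.84% of all tested genes. By distance from *myd88*, 9 of 60 genes had such a p within 2 Mb (15%), 4 of 56 at 2 to 5 Mb (7.14%), 14 of 106 at 5 to 10 Mb (13.2%) and 25 of 245 farther away (10.2%). Counts with the deeper library alone are left out for the same reason. Fish chosen by their *myd88* alleles also share the chromosome around them, so MyD88 and that chromosome cannot be told apart by this design.

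Apart from *myd88*, 52 genes of chromosome 24 had such a p at 24 hpci, 18 lower and 34 higher, and 35 of them had the same sign in both other states. Of the 800 genes with such a p elsewhere 329 (41.1%) had the same sign in both. *hhatlb*, 0.37 Mb from *myd88* and singled out after its values were seen, had 269 and 140 normalized counts in *myd88*-/- tissues at 24 hpci, against 18 and 1 in *myd88*+/+ tissues. Its log2 fold change was 6.12 in UT ventricles, 4.54 at 1 hpci and 4.98 at 24 hpci. The value at 24 hpci had a standard error of 1.53 (limma adjusted p = 0.70), and was 6.61 with the deeper library alone. *adipoqa* had 1 and 0 against 18 and 23 at 24 hpci, and log2 fold changes of −4.49, −2.70 and −3.92 in the same order of states. At 24 hpci its standard error was 0.68 (limma adjusted p = 0.18), and the value was −4.085 with the deeper library alone. *phex*, in contrast, had −0.37 in UT ventricles, 0.08 at 1 hpci and 3.31 at 24 hpci.

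**Figure D5:**
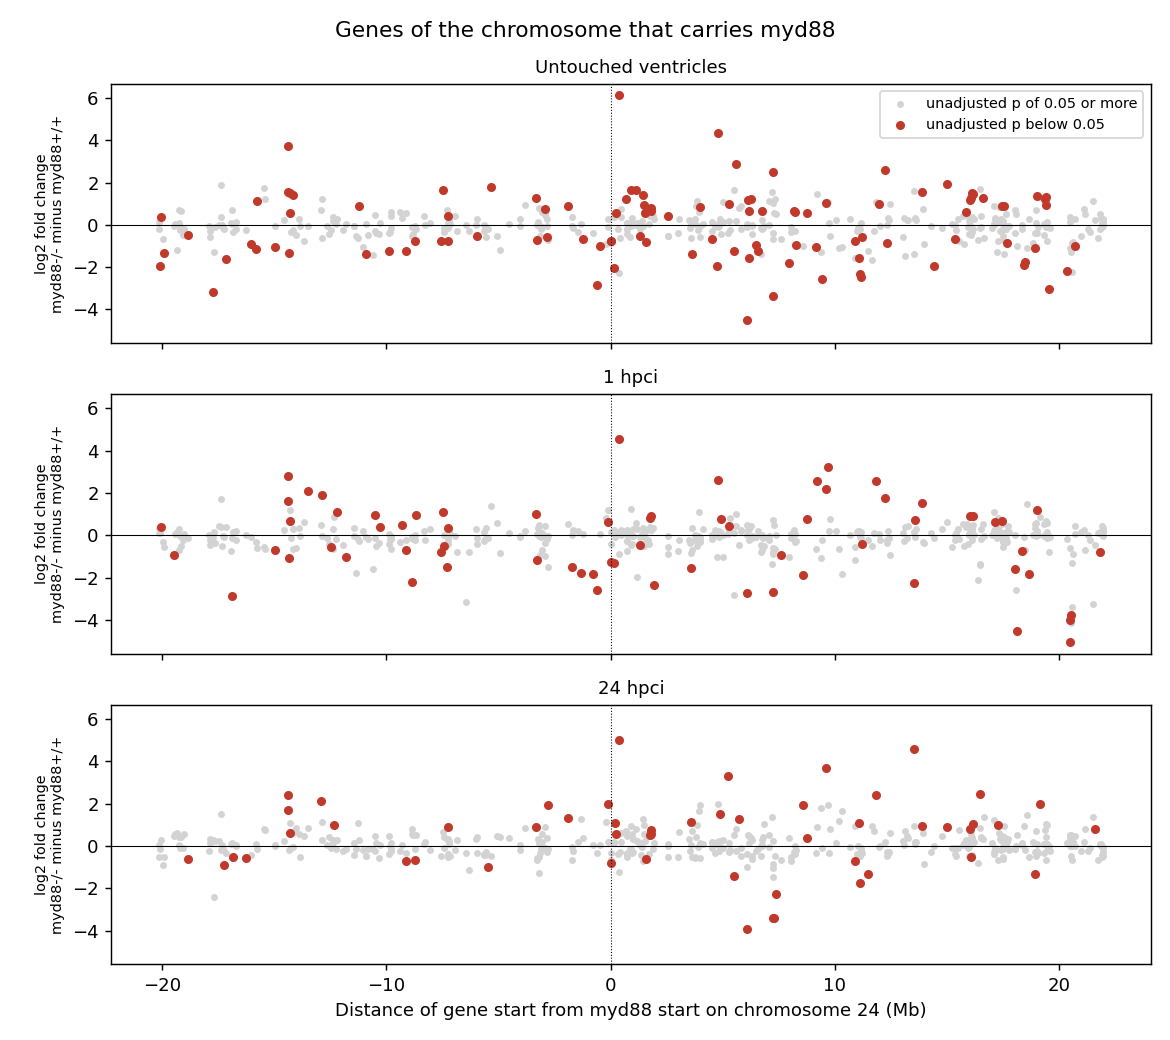
Log2 fold change of *myd88*-/- over *myd88*+/+ (y axis) for the 468 tested genes of chromosome 24 by distance from *myd88* in Mb (x axis), in UT ventricles, at 1 hpci and at 24 hpci from top to bottom. Red points have an unadjusted limma p below 0.05 (23.3% in UT ventricles, 15% at 1 hpci and 53 genes at 24 hpci), and they spread over the whole chromosome.

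Interaction terms of the limma model set the genotype difference at 24 hpci against that of each other state. Against UT ventricles 8 genes were called (0.0481%, of which 2 lower, 0.012%, and 6 higher, 0.0361%), and against 1 hpci 3 genes (all higher, 0.018%). For *si:ch211-14a17.10* the difference at 24 hpci minus that in UT ventricles was −5.70 (limma adjusted p = 0.014), and for *si:ch211-194m7.8* it was −6.20 (limma adjusted p = 0.017). For *oit3* the difference at 24 hpci minus that at 1 hpci was 8.17 (limma adjusted p = 0.029). Against the deeper library alone the 3 values were −5.30, −5.78 and 8.17. None of these 3 passed, which does not hold for every called interaction. With both *myd88*+/+ libraries, each of the 3 genes passed against 1 of the other states only. Against 1 hpci *si:ch211-14a17.10* had −4.72 and *si:ch211-194m7.8* −5.30 (limma adjusted p = 0.053 each). The genotype differences of these genes were 1.02 and 1.52 in UT ventricles, and 0.035 and 0.61 at 1 hpci. Against UT ventricles *oit3* had 5.54 (limma adjusted p = 0.095). The other genes with a called interaction are given with both *myd88*+/+ libraries first and then with the deeper one. Against UT ventricles *adrb2b* had 3.97 and 3.81, *si:ch211-195b13.1* 3.24 and 3.11, and *slc25a25a* 2.61 and 2.76. In the same comparison *lipg* had 5.32 and 5.51, and *mfsd2ab* 1.97 and 2.001. Against 1 hpci *alpk2* had 6.75 and 6.64. At 24 hpci itself the genotype difference was 0.90 for *adrb2b*, 0.55 for *si:ch211-195b13.1* and −0.195 for *slc25a25a*. It was 0.13 for *lipg*, −0.71 for *mfsd2ab* and −0.53 for *alpk2*. In UT ventricles these genes, in the same order and without *alpk2*, had −3.07, −2.69, −2.81, −5.185 and −2.68. At 1 hpci *alpk2* had −7.29. Of the list members, 2 had a called interaction and are named for it after their values were seen. *col18a1a*, a collagen gene, was called against 1 hpci (4.14, limma adjusted p = 0.020), with a genotype difference of −3.42 at 1 hpci and 0.72 at 24 hpci. *jund*, an AP-1 subunit gene, was called against UT ventricles (1.95, limma adjusted p = 0.032), with −1.69 in UT ventricles and 0.26 at 24 hpci. Neither was called between the genotypes at 24 hpci, and with the deeper library alone the interactions were 4.01 and 1.99 (limma adjusted p = 0.072 and 0.051). *tnfa* did not pass (−5.34 against UT ventricles, limma adjusted p = 0.12, and −1.64 against 1 hpci, limma adjusted p = 0.80). Its values in those states rest on few reads. They were 6 and 1 in *myd88*-/- against 0 and 0 in UT ventricles, and 0 and 0 against 3 and 2 at 1 hpci. In the 1 hpci samples *myd88*+/+ replicate 2 also held 1815 normalized counts of the skeletal muscle gene *myhz2*, against 0 and 1 in *myd88*-/- and 31 in its own replicate, and the part of this in the interactions with 1 hpci was not tested.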

How the data were processed

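Stranded mRNA libraries were sequenced as single-end reads of 75 bases. The authors trimmed with Trimmomatic 0.39, used STAR 2.7.3a for alignment to danRer11 with gene models of Ensembl release 99, removed duplicate, multimapping, ribosomal and mitochondrial reads with Picard 2.21.7, counted reads on exons with featureCounts 1.6.5 and normalized with DESeq2 1.26.0. The deposited values are treated as a score, since they are counts divided by size factors and rounded. Removing duplicates caps the reads a short, abundant gene can keep, and more so in deeper libraries. Raw counts were not used here, so no count test was run.

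Tests used log2(value + 1) of the 16643 of 22736 genes whose mean across all 12 libraries exceeded 5, and limma 3.58.1 (R 4.3.3) with a trended prior, 6 condition means and 6 residual degrees of freedom. P-values were adjusted by Benjamini-Hochberg over all tested genes. Fold changes on this scale understate those of low genes. In the fits without 1 library the lone sample is assumed to vary like the other groups. The worth of 1 read was the step that best explained the spacing of low values. Both procedures were tested on simulated data. Those data lacked the level-dependent difference between the *myd88*+/+ replicates, so its effect on the calls was not covered.

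Named genes were *myd88*, all called genes, 15 lower and 15 higher genes as described, up to 3 tested members with the smallest p in each of 32 lists, defining markers, and those of them with a called interaction. Values are not printed for all of them. Other genes with a called interaction are named for that alone. The comparison, the lists and the rules were chosen with earlier results of these data known. Alternatives tried were other pseudocounts (0.5, 5), dropping the filter or raising it to 20, scaling by TMM or by quantiles, an untrended prior, array weights, a replicate block, each library left out, the 4 libraries alone, other thresholds, and, added after seeing the data, cyclic loess and crossed blocks. The 2 libraries of a condition come from separate pools, and the numbers in the labels name no shared litter or day.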

Additional observations from a re-analysis of the deposited data

Results flagged for a closer look

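In 3 of the called genes the genotype difference at 24 hpci was itself different from that in another state by limma's interaction test. For *si:ch211-14a17.10* and *si:ch211-194m7.8* the difference at 24 hpci minus that in UT ventricles was −5.70 and −6.20. Their genotype differences in UT ventricles were 1.02 and 1.52. For *oit3* the difference at 24 hpci minus that at 1 hpci was 8.17, with −2.20 at 1 hpci. Against the remaining state none of the 3 passed (limma adjusted p = 0.053, 0.053 and 0.095). Against the deeper *myd88*+/+ library alone none of the 3 passed, which does not hold for every called interaction. Outside the rule for naming, the same test singled out *jund*, where the difference at 24 hpci minus that in UT ventricles was 1.95 (0.26 at 24 hpci and −1.69 in UT ventricles), and *col18a1a*, where the difference at 24 hpci minus that at 1 hpci was 4.14 (0.72 at 24 hpci and −3.42 at 1 hpci). With the deeper library alone these were 1.99 and 4.01, and neither passed (limma adjusted p = 0.051 and 0.072).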

How the results depend on the processing

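The 5 genes called at 24 hpci kept their sign in every alternative. Their values did not overlap between the genotypes, so leaving out a library could not have changed it. The number of calls was 20 after adding 5 in place of 1, 3 with an untrended prior, and 0 with array weights, with the replicate block and with only the 4 libraries compared, and it ranged between 0 and 2165 when each library was left out. The 8 calls of the difference at 24 hpci against that in UT ventricles became 27 with quantile normalization, 3 with an untrended prior and 0 with the replicate block, and lay between 2 and 1244 with a library left out. The 3 calls against 1 hpci became 7 after adding 5 in place of 1, 6 with quantile normalization, 9 with cyclic loess and 1 with the replicate block, and lay between 1 and 905. The highest counts came without *myd88*+/+ replicate 2, which leaves the shallow library. The cause was not tested. The replicate numbers name different pools, and the labels do not say whether same-numbered pools shared a day or batch. The deviations of same-numbered libraries at 24 hpci correlated at −0.35. With only 2 pairs, this value cannot decide whether the samples are paired. With crossed numbers, chosen after seeing the data, the counts were 4 at 24 hpci, 9 against UT ventricles and 1 against 1 hpci. Depth limits genes near 7.61 normalized counts in *myd88*+/+ replicate 1, the worth of 3 reads.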
